A study of Mus musculus with 19 samples.

Results

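Expression of 10 WNT target and feedback genes was examined in RNA from small intestinal crypts of 19 mice. The genes are Axin2, Rnf43, Znrf3, Nkd1, Notum, Sp5, Tcf7, Lef1, Cd44 and Myc. They were matched by symbol to the gene identifiers of the deposited tables, and all 10 were found among 55487 genes. Crypts, the epithelial pits that hold intestinal stem cells (ISCs), Paneth cells and dividing progenitors, were isolated with EDTA from the proximal part of the small intestine. The mice were C57BL/6 and 10 to 16 weeks old, either wild type (Nt+/+) or lacking the neurotensin gene (Nt-/-). Food was either ad libitum or withheld for 48 hours, and the controls fed ad libitum were littermates. Ad libitum feeding gave 5 Nt+/+ and 4 Nt-/- mice, fasting gave 5 Nt+/+ and 5 Nt-/- mice, and each mouse gave 1 library. Whether these mice also carried a stem cell reporter allele is not given in the labels. The authors describe fed and fasted mice of both genotypes with an Lgr5-EGFP reporter.

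WNT ligands bind Frizzled and LRP receptors, which stops the destruction complex from degrading β-catenin. β-Catenin then enters the nucleus, binds TCF/LEF factors on DNA and turns on target genes. Several of these targets act back on the pathway as inhibitors, so that a cell that receives WNT limits its own response. In the intestine the pathway is known for maintaining ISCs and Paneth cells at the crypt base. The comparisons below ask how these genes differed between fasted and ad libitum–fed crypts in each genotype and between genotypes in each diet.

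Total counts per mouse ran from 9059457 to 35068711 (median, 18541819). Nts, the gene for neurotensin, lay between 4.98 and 8.59 CPM (counts scaled by library size) in libraries titled Nt+/+ and between 0.144 and 0.793 CPM in libraries titled Nt-/-. Replicate 5 of the fasted Nt+/+ group has a title of Nt+/+ and a genotype label of Nt-/-. The range of the Nt+/+ libraries includes this mouse, so its Nts level was at least 4.98 CPM, above every library titled Nt-/-. It was grouped by title, and log2 fold changes in the text that it moved by over 1.5 times are also given without it. The 2 shallowest libraries, at 9059457 and 10067632 counts, were both fasted Nt-/- mice. Markers of epithelium summed to between 5299 and 7335 CPM in every library, and those of stroma to between 10.4 and 20.1 CPM. In bulk crypts, fewer cells of a type and less RNA per cell cannot be told apart.

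Levels of different genes were compared per length in TPM (transcript abundance scaled by length and depth). In ad libitum–fed Nt+/+ crypts Axin2 was highest, at 65.6 ± 9.99 TPM (SD, n = 5). Axin2 encodes a scaffold of the destruction complex. Myc, a transcription factor for growth and cell division, followed at 35.0 ± 5.99 TPM, and Rnf43, a ubiquitin ligase that removes Frizzled receptors from the membrane, at 30.1 ± 5.95 TPM. The intervals of 1 SD of Myc and Rnf43 overlapped. Cd44, an adhesion receptor of crypt base cells, was at 21.2 ± 3.28 TPM, and its interval of 1 SD overlapped that of Rnf43. Znrf3, the paralog of Rnf43, was at 7.33 ± 0.652 TPM, and Tcf7, which encodes the DNA-binding factor TCF1, was at 4.57 ± 0.770 TPM. Nkd1, an inhibitor of Dishevelled, was at 2.88 ± 0.735 TPM and Sp5, a transcription factor that represses other WNT targets, at 2.58 ± 0.508 TPM, and these neighbors differed by less than their SD. Lef1, which encodes a DNA-binding partner of β-catenin, was at 0.412 ± 0.199 TPM. Notum, a secreted enzyme that removes the lipid of WNT ligands, was at 0.338 ± 0.104 TPM, within 1 SD of Lef1.

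**Figure D1:**
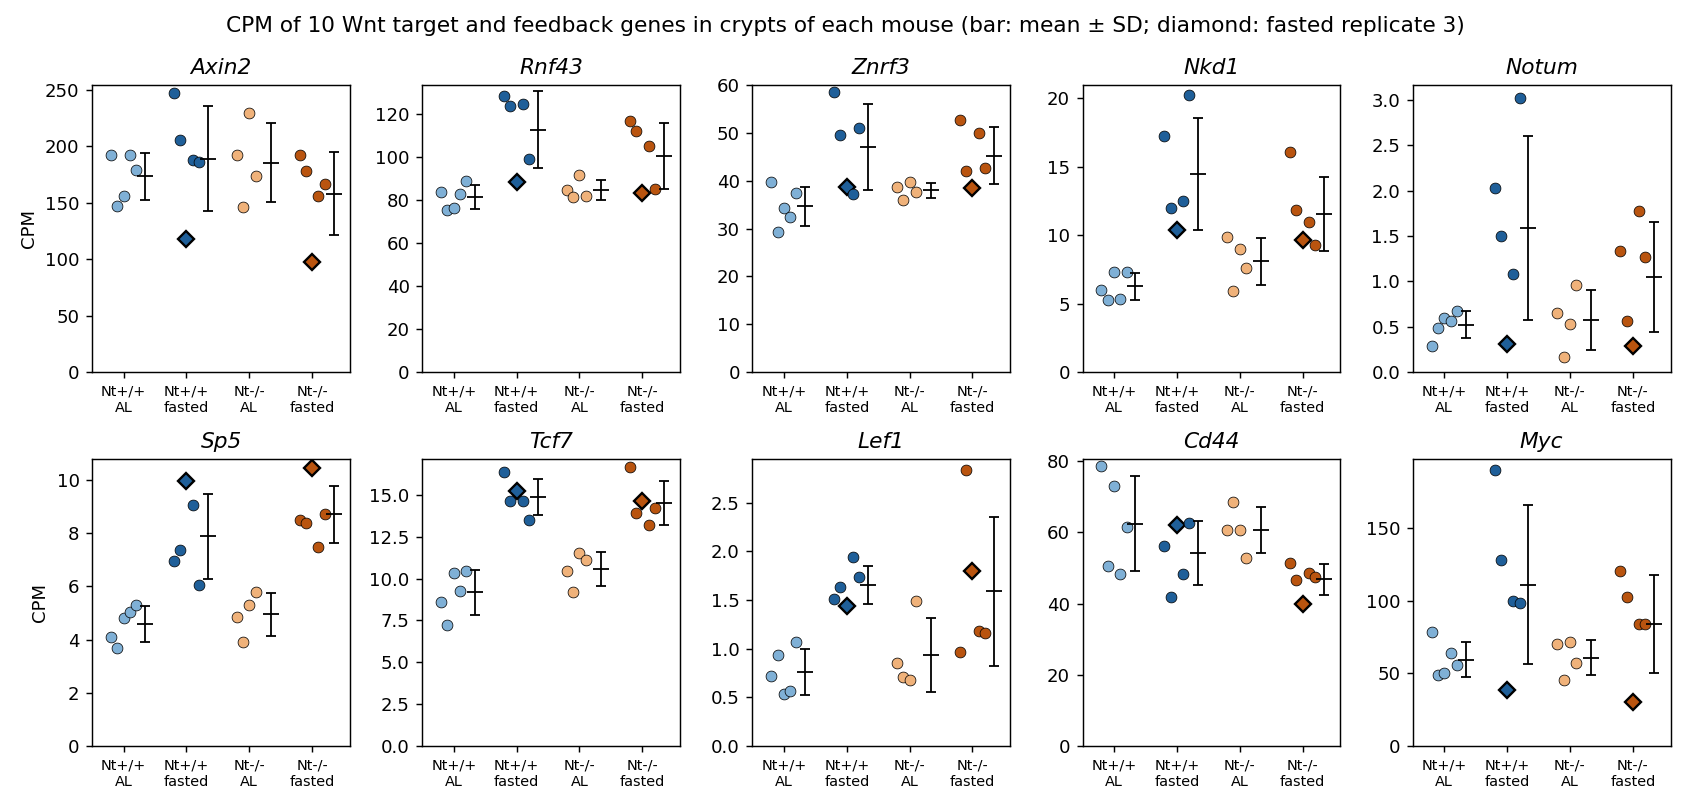
CPM (vertical axis, linear from 0) of each gene in every mouse, by genotype and diet (horizontal axis; AL, ad libitum). Points are mice, bars are mean ± SD, and diamonds mark replicate 3 of each fasted group, which was lowest in both genotypes for 4 of the 10 genes and highest in both for 1.

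In Nt+/+ crypts, 7 of the 10 genes rose with fasting and 0 fell. These were Rnf43, Znrf3, Nkd1, Notum, Sp5, Tcf7 and Lef1. Among all 17875 genes tested, 21.6% passed the same threshold (edgeR's quasi-likelihood test, Benjamini-Hochberg adjusted p under 0.05), 11.2% of all genes as higher. The median log2 fold change was 0.74 over the 10 genes and -0.0089 over all genes. In 4 genes (Nkd1, Sp5, Tcf7 and Lef1) every fasted Nt+/+ mouse lay above every ad libitum–fed one, which held for 7.63% of all genes. In Nt-/- crypts 2 of the 10 genes, Sp5 and Tcf7, rose and 0 fell, where 25.2% of all genes were called, 12.5% as higher. With the number in the deposited file names as a block, Rnf43, Znrf3 and Nkd1 also rose (adjusted p = 0.0184, 0.0450 and 0.0357 by edgeR). Cd44 fell in that fit (adjusted p = 0.0336 by edgeR). Without the 3 mice whose deposited files carry the number 3, an alternative added after seeing the data, 4 of the 10 rose in Nt-/- crypts. These were Sp5, Tcf7, Rnf43 (adjusted p = 0.0380 by edgeR) and Myc (0.0280). The effect of fasting differed between Nt-/- and Nt+/+ mice past the threshold for 0 of the 10 genes by edgeR, 0 by DESeq2, and 0% of all genes. Its difference, Nt-/- minus Nt+/+, was below 0 for 9 of the 10, where 48% of all genes were above 0. Several of the genes deviated together within groups, so these signs are not separate evidence. None of the mice of number 3 was an ad libitum–fed Nt-/- mouse. With the file name number as a block, the difference was -0.16 instead of -0.44 for Myc and -0.43 instead of -0.76 for Notum. For Sp5, Tcf7, Lef1 and Cd44 it was more negative with that block. Without the mouse whose labels disagree, and with no block, the difference for Notum was -0.38 instead of -0.76.

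Sp5 rose in both genotypes. Its gene lies on chromosome 2 of GRCm38, from base 70474923 to 70477729 on the plus strand, and no annotated gene overlaps it. In Nt+/+ mice it measured 4.08, 3.69, 4.82, 5.02 and 5.32 CPM with ad libitum feeding and 6.95, 7.37, 9.98, 9.08 and 6.05 CPM after fasting. All fasted mice were above all fed mice, with a log2 fold change of 0.78 ± 0.15 (SE; adjusted p = 0.00125 by edgeR). Without neurotensin it measured 4.84, 3.90, 5.30 and 5.81 CPM with ad libitum feeding and 8.49, 8.40, 10.5, 7.50 and 8.72 CPM after fasting. Again the groups did not overlap, as in 10.5% of all genes toward higher values, and the log2 fold change was 0.82 ± 0.16 (adjusted p = 0.00122 by edgeR). The difference between the effects was 0.03 on the log2 scale (95% interval, -0.44 to 0.50), and -0.05 without the mouse whose labels disagree.

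Promoter windows of 300 bases, from 250 before the start to 50 after it, are shown for 3 of the 10 genes. Sp5 rose in both genotypes, Nkd1 rose in Nt+/+ crypts, and Axin2 passed the threshold in neither. The windows shown are RefSeq sequences of GRCm38.p6, 5′ to 3′ on the plus strand, at chr2:70474673-70474972, chr8:88527383-88527682 and chr11:108920099-108920398. The Sp5 and Axin2 windows surround the annotated gene start, and that of Nkd1 surrounds a RefSeq start inside the gene. Capitals mark matches to the TCF/LEF motif, searched on both strands as CTTTG followed by AA, AT, TA or TT.
Sp5: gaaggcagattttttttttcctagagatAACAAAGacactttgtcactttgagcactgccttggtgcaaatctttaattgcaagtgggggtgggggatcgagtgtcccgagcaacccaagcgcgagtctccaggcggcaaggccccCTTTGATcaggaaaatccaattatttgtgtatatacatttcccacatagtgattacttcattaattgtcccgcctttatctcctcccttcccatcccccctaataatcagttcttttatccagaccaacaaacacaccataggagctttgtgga
Nkd1: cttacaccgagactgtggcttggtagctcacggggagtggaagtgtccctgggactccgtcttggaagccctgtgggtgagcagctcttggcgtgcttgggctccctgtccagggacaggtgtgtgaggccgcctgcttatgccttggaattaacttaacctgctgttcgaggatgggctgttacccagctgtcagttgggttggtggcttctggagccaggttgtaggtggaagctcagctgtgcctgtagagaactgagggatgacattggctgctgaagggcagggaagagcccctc
Axin2: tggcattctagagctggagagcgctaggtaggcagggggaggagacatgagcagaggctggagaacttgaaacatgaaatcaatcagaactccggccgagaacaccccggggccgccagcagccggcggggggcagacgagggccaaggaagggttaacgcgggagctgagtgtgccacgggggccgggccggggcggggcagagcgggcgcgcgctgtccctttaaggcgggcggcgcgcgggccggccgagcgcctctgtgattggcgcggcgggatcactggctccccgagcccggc
Of 32851 RefSeq windows of this length, 16.9% held at least 1 match. Windows were found for 7 of the 10 genes, 12 windows in all, and 2 of them (16.7%) held a match. The Sp5 window held AACAAAG, the motif on the minus strand, from base -222, and CTTTGAT from base -104. The other match was in 1 of the 4 Lef1 windows, also at a start inside the gene. The windows of Axin2 and Nkd1 held none, which says only that these letters are not in these windows. Those of Tcf7, the other gene that rose in both genotypes, also held none. Whether matches go with the effect of fasting was not tested.

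The other gene that rose in both genotypes was Tcf7 (chromosome 11, 52252371 to 52283014, minus strand). In Nt+/+ mice it measured 8.59, 7.21, 10.4, 9.29 and 10.4 CPM with ad libitum feeding and 16.4, 14.7, 15.2, 14.7 and 13.5 CPM after fasting. The groups did not overlap, with a log2 fold change of 0.70 ± 0.11 (adjusted p = 0.00013 by edgeR), 1.63-fold. The Nt-/- mice measured 10.5, 9.20, 11.6 and 11.1 CPM with ad libitum feeding and 16.7, 14.0, 14.6, 13.2 and 14.2 CPM after fasting. Every fasted mouse was above every fed mouse here too, with a log2 fold change of 0.46 ± 0.11 (adjusted p = 0.00560 by edgeR), 1.38-fold. The effect in Nt-/- minus that in Nt+/+ was -0.24 (95% interval, -0.56 to 0.09; adjusted p = 1.00 by edgeR). Fasted crypts of the genotypes differed by -0.03 (95% interval, -0.25 to 0.19), and by -0.06 without the mouse whose labels disagree.

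Tcf7 and Lef1 are also genes of T cells, some of which lie within the intestinal epithelium. The 12 T cell markers summed to between 49.2 and 160.8 CPM in ad libitum–fed and between 58.5 and 231.6 CPM in fasted Nt+/+ mice, and 0 of 12 passed the threshold. For Nt-/- mice the sums were between 70.7 and 145.6 CPM and between 125.4 and 217.7 CPM, and 1 of 12 rose. Within groups, the correlation of this sum with Tcf7 was -0.20 (permutation p = 0.499, n = 19 mice) and with Lef1 0.08 (permutation p = 0.71, n = 19 mice). Its part in the rise of Tcf7 and Lef1 was not tested further.

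Lef1 (chromosome 3, 131110471 to 131224356, plus strand) was a gene of few counts, between 8 and 34 per mouse. In Nt+/+ mice it measured 0.720, 0.934, 0.528, 0.558 and 1.06 CPM with ad libitum feeding and 1.51, 1.64, 1.44, 1.94 and 1.74 CPM after fasting. The groups did not overlap, with a log2 fold change of 1.10 ± 0.30 (adjusted p = 0.0119 by edgeR). The Nt-/- values were 0.856, 0.704, 0.674 and 1.49 CPM and, after fasting, 0.961, 2.84, 1.79, 1.18 and 1.16 CPM. These groups overlapped, and the log2 fold change was 0.73 ± 0.32 (adjusted p = 0.0994 by edgeR). It passed without replicate 4 of the ad libitum–fed Nt-/- group (log2 fold change, 1.03; adjusted p = 0.0294).

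The Dishevelled inhibitor Nkd1 and the receptor ligases Rnf43 and Znrf3 rose in Nt+/+ crypts. Nkd1 (chromosome 8, 88521354 to 88594884, plus strand) measured 6.00, 5.29, 7.33, 5.33 and 7.30 CPM with ad libitum feeding and 17.3, 12.0, 10.4, 12.5 and 20.2 CPM after fasting in Nt+/+ mice. The groups were separated, at 2.32-fold, with a log2 fold change of 1.21 ± 0.20 (adjusted p = 0.000222 by edgeR). In Nt-/- mice Nkd1 measured 9.82, 5.90, 9.0 and 7.62 CPM and, after fasting, 16.1, 11.8, 9.66, 10.9 and 9.25 CPM. These groups overlapped in 2 fasted mice, with a log2 fold change of 0.51 ± 0.21 (adjusted p = 0.0787 by edgeR). Of the 10 genes, Nkd1 alone had an unadjusted p under 0.05 for the difference between the effects of fasting, at -0.70 on the log2 scale (95% interval, -1.30 to -0.11; unadjusted p = 0.0220, adjusted p = 1.00 by edgeR). Of all genes, 2.71% reached that unadjusted level. Without the mouse whose labels disagree, which had the highest Nkd1, the difference was -0.55.

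Rnf43 (chromosome 11, 87662722 to 87735539, plus strand) in Nt+/+ mice measured 83.9, 75.4, 76.1, 82.8 and 88.9 CPM with ad libitum feeding and 128.6, 123.6, 88.3, 124.8 and 98.9 CPM after fasting. The third fasted mouse lay within the fed range and the other 4 above it, with a log2 fold change of 0.47 ± 0.11 (adjusted p = 0.00392 by edgeR). Without neurotensin it measured 84.6, 81.2, 91.5 and 81.9 CPM and, after fasting, 116.7, 112.2, 83.4, 105.0 and 85.1 CPM. Here 3 of 5 fasted mice were above all fed mice, with a log2 fold change of 0.24 ± 0.11 (adjusted p = 0.130 by edgeR). Znrf3 (chromosome 11, 5276324 to 5444847, minus strand) ran from 29.3 to 39.7 CPM in fed and from 37.3 to 58.6 CPM in fasted Nt+/+ mice, with a log2 fold change of 0.44 ± 0.12 (adjusted p = 0.0106 by edgeR). In Nt-/- mice it ran from 35.9 to 39.7 CPM and from 38.5 to 52.9 CPM, with a log2 fold change of 0.25 ± 0.12 (adjusted p = 0.152 by edgeR).

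Notum (chromosome 11, 120653788 to 120661175, minus strand) had between 3 and 54 counts per mouse and was the most variable of the inhibitors. In Nt+/+ mice it measured 0.288, 0.489, 0.595, 0.558 and 0.677 CPM with ad libitum feeding and 2.03, 1.5, 0.309, 1.08 and 3.02 CPM after fasting. All fasted mice but the third were above the fed mice, with a log2 fold change of 1.60 ± 0.51 (adjusted p = 0.0299 by edgeR). Without the mouse whose labels disagree, which was the highest, the log2 fold change was 1.22 (adjusted p = 0.0996). The call was also lost without ad libitum replicate 1 (adjusted p = 0.0718), 2 (0.0577) or 4 (0.0504), or without fasted replicate 1 (0.0554) of the Nt+/+ groups. In Nt-/- mice it ran from 0.162 to 0.959 CPM with ad libitum feeding and from 0.289 to 1.78 CPM after fasting, and the log2 fold change was 0.84 ± 0.55 (adjusted p = 0.293 by edgeR). Antisense genes overlap Notum, Tcf7, Lef1 and Axin2, and whether counting used strand is not given in the sources used here, so reads of these partners cannot be told apart from theirs.

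**Figure D2:**
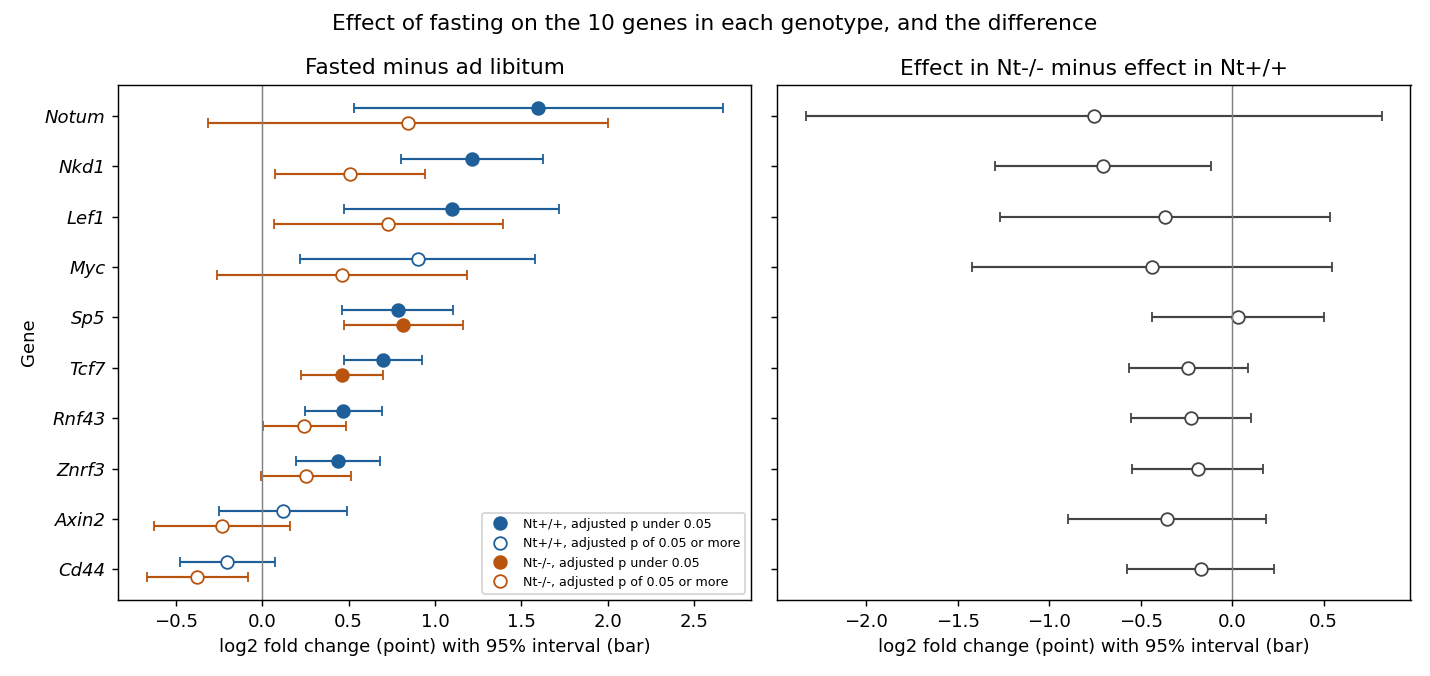
Log2 fold change with its 95% interval (horizontal axis) for each gene (vertical axis): the effect of fasting by genotype at left, and the effect in Nt-/- minus that in Nt+/+ at right. Filled points have an adjusted p under 0.05: 7 in Nt+/+, 2 in Nt-/- and 0 for the difference, of which 9 of 10 values lie below 0.

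Axin2, Myc and Cd44 did not pass the threshold in either genotype. Axin2 (chromosome 11, 108920349 to 108950783, plus strand) in Nt+/+ mice measured 192.3, 147.5, 155.8, 192.7 and 179.2 CPM with ad libitum feeding and 246.9, 205.4, 117.9, 188.2 and 185.9 CPM after fasting. The fasted mice held both the highest and the lowest values, with a log2 fold change of 0.12 ± 0.18 (95% interval, -0.25 to 0.49; adjusted p = 0.676 by edgeR). The Nt-/- mice measured 191.9, 146.4, 229.6 and 174.0 CPM and, after fasting, 192.3, 178.5, 97.3, 155.6 and 166.4 CPM. These groups overlapped as well, with a log2 fold change of -0.23 (95% interval, -0.63 to 0.16; adjusted p = 0.407 by edgeR).

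Myc (chromosome 15, 61985391 to 61990374, plus strand) in Nt+/+ mice measured 78.5, 48.7, 50.1, 64.1 and 55.8 CPM with ad libitum feeding and 190.2, 128.1, 38.8, 99.8 and 98.4 CPM after fasting. Of the fasted mice 4 were above all fed mice and the third was below them all, with a log2 fold change of 0.90 ± 0.33 (adjusted p = 0.0539 by edgeR). Without the 3 mice whose deposited files carry the number 3, the log2 fold change was 1.06 (adjusted p = 0.00278 by edgeR). These mice were left out after the values had been seen, and they hold the lowest fasted Myc of each genotype. The p values without them are therefore not separate tests. In Nt-/- mice Myc measured 70.2, 45.1, 71.3 and 57.1 CPM and, after fasting, 120.4, 102.6, 30.4, 84.2 and 83.7 CPM. The same layout was seen, 4 mice above and the third below all fed mice, with a log2 fold change of 0.46 ± 0.35 (adjusted p = 0.363 by edgeR), and of 0.68 (adjusted p = 0.0280) without the mice of number 3. The effect in Nt-/- minus that in Nt+/+ was -0.44 (95% interval, -1.42 to 0.55).

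Cd44 (chromosome 2, 102811141 to 102901665, minus strand) was the only one of the 10 genes below 0 in both genotypes. In Nt+/+ mice it ran from 48.3 to 78.8 CPM in fed and from 41.8 to 62.6 CPM in fasted mice, with a log2 fold change of -0.20 ± 0.13 (adjusted p = 0.298 by edgeR). The Nt-/- mice measured 60.7, 68.5, 60.6 and 52.9 CPM with ad libitum feeding and 51.4, 46.6, 39.8, 48.6 and 47.5 CPM after fasting. All fasted mice were below all fed mice, a pattern of 10.8% of all genes, and the log2 fold change was -0.37 ± 0.14 (adjusted p = 0.0557 by edgeR). Cd44 passed as lower with upper quartile normalization (adjusted p = 0.0387), with a minimum of 10 counts in each mouse (0.0418) and with only these groups in the fit (0.0176). It also passed without ad libitum replicate 1, 2 or 4 or fasted replicate 2 of the Nt+/+ groups (0.0379, 0.0486, 0.0419 and 0.0462), or without ad libitum replicate 4 of the Nt-/- group (0.0461).

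Between the genotypes, 0 of the 10 genes passed the threshold in either diet by edgeR, where 0.00559% of all genes were called in each diet. By DESeq2 the count was also 0, of 10 genes with an adjusted p in ad libitum–fed and 7 in fasted mice. An unadjusted p under 0.05 was reached by 0 of the 10 in either diet, and by 1.67% and 9.14% of all genes. In ad libitum–fed mice the difference, Nt-/- minus Nt+/+, ran from -0.04 for Cd44 to 0.38 for Nkd1 on the log2 scale and was above 0 for 9 of the 10, against 49.6% of all genes. In fasted mice it ran from -0.60 for Notum to 0.15 for Sp5 and was above 0 for 1 of the 10, against 47.3% of all genes. Without the mouse whose labels disagree, Notum was at -0.22, Nkd1 at -0.17 instead of -0.32, and Sp5 at 0.06. The comparisons share mice, so these counts are not separate evidence. For Myc in fasted mice the interval was -1.08 to 0.28, and for Rnf43 it was -0.39 to 0.06.

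Several of the genes deviated together from mouse to mouse within a group. Deviations of log2 CPM from the group mean were correlated over 19 mice for 45 pairs of the 10 genes, and 5 pairs passed an adjusted p of 0.05 by permutation within groups. All 5 were positive and lay among Axin2, Myc, Rnf43 and Znrf3. Axin2 and Myc had r = 0.968 and rho = 0.925 (permutation p = 1e-05, the smallest that 100000 resamples can give; adjusted p = 0.00045), and r = 0.919 without the 2 mice farthest from the median of Axin2. Rnf43 had r = 0.802 with Myc (rho = 0.788; permutation p = 5e-05, adjusted p = 0.00112) and 0.795 with Axin2 (rho = 0.767; permutation p = 8e-05, adjusted p = 0.0012), and these were 0.649 and 0.632 without the 2 farthest mice. Znrf3 had r = 0.71 with Myc (rho = 0.653) and 0.676 with Axin2 (rho = 0.537), each with a permutation adjusted p of 0.0352, but adjusted p values of 0.069 and 0.169 for rho. Without the mice of number 3, 1 of these 5 pairs passed, Axin2 with Myc (r = 0.897, rho = 0.915, n = 16 mice, permutation adjusted p = 0.00045). The other 4 had permutation adjusted p values of 0.140 to 0.143, and Axin2 with Tcf7 passed instead (r = 0.762, rho = 0.727, permutation adjusted p = 0.0499). Genes of 1 library share its depth and its mix of cells.

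**Figure D3:**
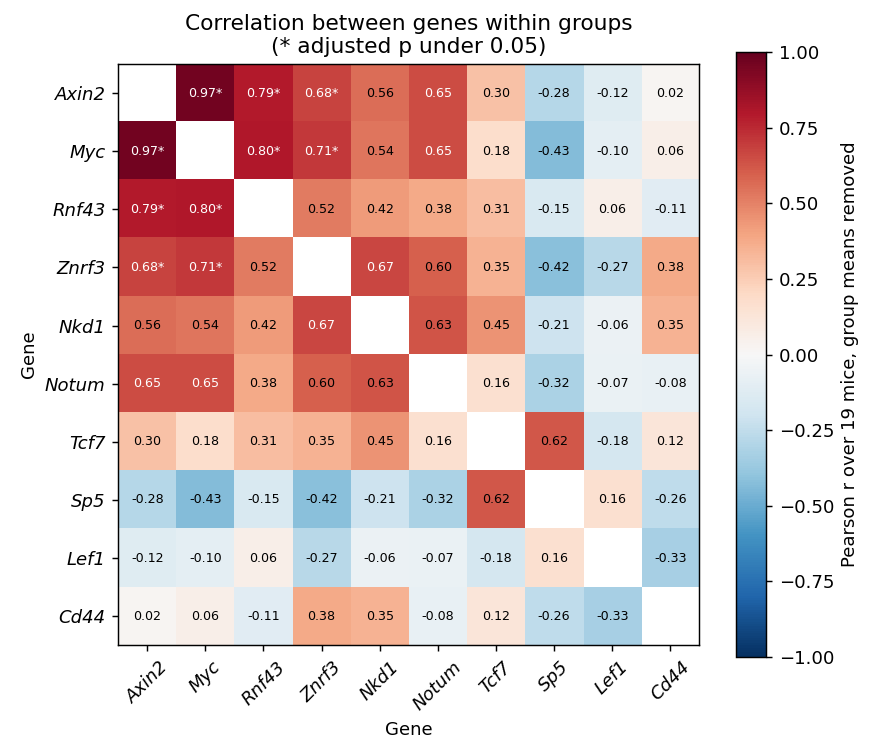
Pearson correlation (color and number) of log2 CPM between each pair of the 10 genes (both axes) over 19 mice after removal of group means. The 5 pairs with an asterisk, all among Axin2, Myc, Rnf43 and Znrf3, have an adjusted permutation p under 0.05.

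**Figure D4:**
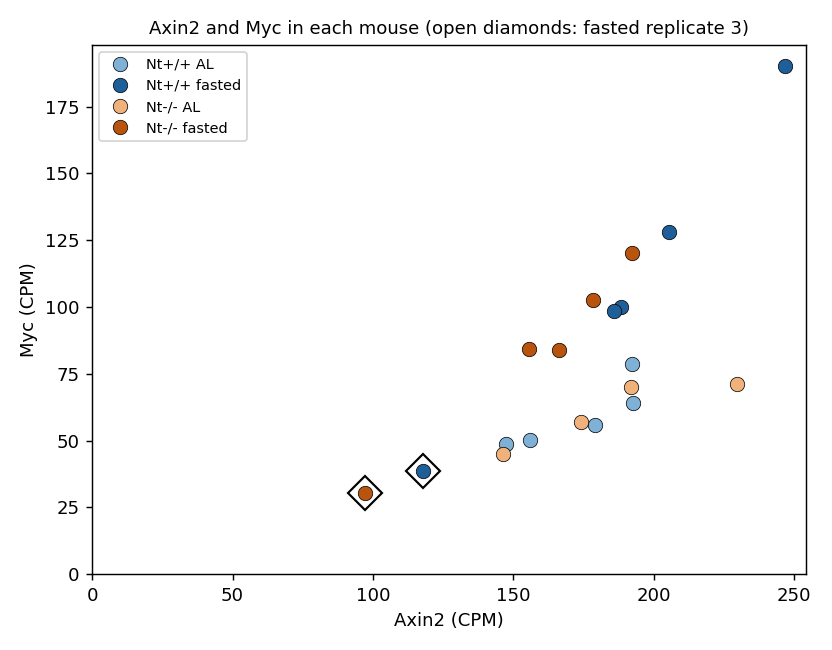
Axin2 (horizontal axis) and Myc (vertical axis) in CPM, 1 point per mouse, colored by group (AL, ad libitum). Open diamonds mark the third mouse of each fasted group, which held the lowest Axin2 and Myc in both genotypes (117.9 and 38.8 CPM in Nt+/+, 97.3 and 30.4 CPM in Nt-/-).

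The deviations were also correlated with summed markers of 5 cell types or states, 50 pairs in all, and 4 passed. Znrf3 had r = -0.785 with T cell markers (rho = -0.756, permutation p = 0.00022, adjusted p = 0.011) and -0.722 with enterocyte markers (rho = -0.682, permutation p = 0.00399, adjusted p = 0.0499). Nkd1 had r = 0.698 with Paneth cell markers (rho = 0.611, permutation p = 0.00292) and Sp5 r = -0.694 with mitosis genes (rho = -0.684, permutation p = 0.00338), each with an adjusted p of 0.0499. By rho, Znrf3 with T cell markers passed (adjusted p = 0.0310), and the other 3 did not (0.102 to 0.111). Without the 2 farthest mice the 4 values of r were -0.655, -0.604, 0.575 and -0.575. Without the mice of number 3, 0 of 50 passed.

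Marker genes of crypt cell types and states also changed with fasting. Whether cell numbers or RNA per cell changed cannot be told apart here. Enterocyte markers rose in 5 of 7 genes in Nt+/+ and 7 of 7 in Nt-/- mice, and their sum went from between 4031 and 8619 CPM to between 8149 and 16590 CPM in Nt+/+, and from between 6121 and 8950 CPM to between 14600 and 19770 CPM in Nt-/- mice. Of all genes, 11.2% rose and 10.4% fell in Nt+/+ mice, and 12.5% rose and 12.6% fell in Nt-/- mice. Mitosis genes fell in 4 of 6 and 5 of 6. Stem cell markers fell in 1 of 5 and 2 of 5 and rose in 0, with a median log2 fold change of -0.19 and -0.23. Among these 5, Lgr5 and Ascl2 were called in neither genotype. They were at 0.29 and 0.63 on the log2 scale in Nt+/+ and at -0.02 and 0.12 in Nt-/- mice. Smoc2 was at -0.27 in Nt+/+ and -0.49 in Nt-/- mice. Mean Olfm4 was 1809 CPM in fed and 1166 CPM in fasted Nt+/+ mice, and 1719 and 911 CPM in Nt-/- mice. Lgr5, Ascl2 and Smoc2 are counted again below among other targets of β-catenin. Paneth cell markers, whose cells receive strong WNT signals, fell in 0 of 7 in Nt+/+ and 1 of 7 in Nt-/- mice and rose in none of the 7 by edgeR in either. The part of these shifts in the changes of the 10 genes was not tested.

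Other genes of the pathway are given by list, against 21.6% of all genes called in Nt+/+ and 25.2% in Nt-/- mice, and no test compared the lists with each other or with all genes. Of 11 genes of the destruction complex and its transducers, 1 rose in Nt+/+ mice, Dvl1 (log2 fold change, 0.32), and 0 were called in Nt-/- mice. Of 9 tested nuclear partners of β-catenin, Bcl9l, a coactivator, rose in both genotypes (0.50 and 0.30) and Tle2, a corepressor, in Nt+/+ (0.56). Of 15 tested receptors and ligands, Lrp5, a coreceptor, rose in Nt+/+ mice (0.26) and Wls, which carries WNT ligands to the cell surface, fell in Nt-/- mice (-0.39). β-Catenin itself, Ctnnb1, measured 572.9 ± 26.4 CPM in fed and 539.0 ± 35.0 CPM in fasted Nt+/+ mice (SD, n = 5).

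Of 6 tested genes listed as inhibitors outside the 10 genes, Dkk3, of the Dickkopf family, rose in both genotypes (1.41 and 1.27). Whether Dkk3 inhibits the pathway in these crypts was not tested. Kremen1, a Dickkopf receptor, rose in Nt+/+ mice (0.44) and Sfrp5, a secreted Frizzled-like protein, fell in both genotypes (-1.31 and -2.15). Of 22 other tested targets of β-catenin in crypts, 1 rose and 4 fell in Nt+/+, and 0 rose and 6 fell in Nt-/- mice. With rises and falls counted in one number, these 5 and 6 called genes of 22 are near the shares of all genes, 21.6% and 25.2%. By direction, 4 and 6 of the 22 fell, where 10.4% and 12.6% of all genes fell. Those that rose were 1 and 0 of the 22, where 11.2% and 12.5% of all genes rose. Ccnd1, the gene for cyclin D1, fell by 0.93 on the log2 scale in both genotypes and Ppard, a nuclear receptor, by 1.08 and 1.28. Met, the HGF receptor, and Mybl2, a cell cycle factor, also fell in both. Smoc2 and Ephb2, which mark the crypt base, fell in Nt-/- mice (-0.49 and -0.29), and Zfp703 rose in Nt+/+ mice (0.63). The median log2 fold change of the 22 was 0.0056 and -0.14. No gene of these 5 lists was called between genotypes or for the difference between the effects of fasting by edgeR.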

How the data were processed

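RNA-seq of crypts from 19 mice was analyzed, 1 library per mouse, grouped by sample title. The authors depleted ribosomal RNA, trimmed single-end reads with Trimmomatic 0.39, used RSEM on the Ensembl transcripts of GRCm38, and deposited its expected counts, TPM, and effective gene lengths in bases, another unit, used only to divide CPM by length. Expected counts split reads shared by similar genes by a model and were rounded here. TPM were used for levels between genes.

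Of 55487 genes, 17875 passed filterByExpr. Counts were TMM normalized and tested with edgeR (version 4.0.16, R version 4.3.3) using the quasi-likelihood test, 1 coefficient per group, no covariate, 15 residual degrees of freedom, and Benjamini-Hochberg adjustment over all genes tested, at 0.05. CPM use TMM library sizes, and log2 CPM a prior count of 2. Correlations used 100000 permutations within groups, two-sided. Code for the fits was tested on simulated data. Total counts of 9059457 to 35068711 limit Notum and Lef1 most. P values of the main fit set group differences against the spread between mice, which were taken as independent.

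The 10 genes, the pathway lists, and the marker lists were chosen with earlier results of these data known. All 10 genes are named, and of the pathway lists the genes that passed. Most marker genes are given only in counts or sums, and some marker lists are not described. Promoter sequences are from RefSeq, GRCm38.p6, and gene positions from GENCODE, GRCm38. Alternatives were other filters, normalizations, DESeq2 (version 1.42.0), blocks, sex, other groupings, and each mouse left out.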

Additional observations from a re-analysis of the deposited data

How the results depend on the processing

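For fasting in Nt+/+ mice, 6 to 8 of the 10 genes were called under 12 alternatives and 6 to 8 with each mouse left out, and for fasting in Nt-/- mice 2 to 6 and 2 to 4. The count in Nt-/- mice was 6 with a block for the file name number (Rnf43, Znrf3, Nkd1, Sp5 and Tcf7 higher, adjusted p of at most 0.0450, and Cd44 lower, 0.0336), 4 without the 3 mice of number 3, an alternative added after seeing the data, and 4 without ad libitum replicate 4. Counts for the genotype comparisons and for the difference between the effects of fasting were 0 under every alternative run, and no log2 fold change of fasting changed sign. Myc in Nt+/+ mice passed with no filter, a minimum of 10 counts in all mice, the upper quartile, either block, sex as a covariate, or without number 3 (adjusted p, 0.00278 to 0.0482). Notum lost its call when the mouse with disagreeing labels was grouped as Nt-/- (1.22; adjusted p = 0.132). Same-numbered mice deviated together (r over 0.1) in 19 of 27 pairs by title number and 24 of 27 by file name number, not in every pair. Mice of different numbers did so in 17 of 108 pairs by title number and 12 of 108 by file name number. The numbers are not explained in the labels, and the main fit did not use them. With the title number as a block, 8 and 3 genes were called, Cd44 as lower in Nt-/- mice (adjusted p = 0.0289). Pairs of genes passing were 3, not 5, with the file name number also removed or with log2(TPM + 1), and 3 to 8 with each mouse left out; pairs with markers were 0 to 4.

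Differences that changed sign were all without a call. For ad libitum–fed genotypes, with the file name block, they were Axin2 (-0.0311), Rnf43 (-0.0023), Notum (-0.14), Cd44 (0.0008) and Myc (-0.21), with sex Myc (-0.0572), and without number 3 Cd44 (0.0201) and Myc (-0.0178). For fasted genotypes they were Lef1 with sex (0.0204), Znrf3 (0.0067), Nkd1 (0.0004), Notum (0.19) and Sp5 (-0.0138) with the disputed mouse regrouped, and Tcf7 without the 2 shallow libraries (0.0291). For the difference between the effects they were Sp5 with the file name block (-0.0189) and, with that mouse regrouped, Notum (0.0367) and Sp5 (-0.13). With each mouse left out, ranges that crossed 0 were, for ad libitum–fed genotypes, Axin2 from -0.0221 to 0.1945, Cd44 from -0.1209 to 0.0567, Lef1 from -0.0327 to 0.4148, Myc from -0.0462 to 0.1582, Notum from -0.1511 to 0.4402, and for fasted genotypes, Lef1 from -0.3701 to 0.0451, Tcf7 from -0.0874 to 0.0057, Znrf3 from -0.1284 to 0.0361, and for the difference between the effects, Sp5 from -0.0634 to 0.1324. DESeq2 gave no adjusted p for 3 of the 10 genes in fasted genotypes.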

Other observations

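The third mouse of each fasted group, both labelled male, was the lowest of its group for Axin2, Rnf43, Notum and Myc and the highest for Sp5 (9.98 and 10.5 CPM). Over 19 mice, with group means removed, the genes most like Myc among 13062 were Sox9 (r = 0.968, rho = 0.965), a transcription factor of the crypt base, Mnx1 (r = 0.954, rho = 0.909) and Zfp703 (r = 0.954, rho = 0.895). Those most like Axin2 were Mnx1 (r = 0.933, rho = 0.897), Pcdh8 (r = 0.925, rho = 0.775) and Sema7a (r = 0.912, rho = 0.886). Those most like Tcf7 were Cry1, a repressor of the circadian clock (r = 0.861, rho = 0.795), Zfp2 (r = 0.852, rho = 0.809) and Tsr2 (r = 0.836, rho = 0.753). These genes were picked as the highest of all compared, so no p is given.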
